A study of Mus musculus with 32 samples.

Results

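The transcripts described here were those with a lower share of reads in the Pan pulldown than in the input of resting neurons. They were chosen by their measured values: a transcript of 1000 to 7999 nt with a mean of at least 200 estimated reads over the 32 libraries was a member when its log2(CPM + 1) was lower by at least 0.5 in the resting Pan pulldown than in the matching input in each of 4 replicates. CPM is the estimated read count scaled to the usual common library total, here with the total counted outside the 3 most abundant transcripts (uc009sgd.1, uc012eno.1 and uc033jng.1). Of 51884 transcripts, 6360 were in that length and count range, and 79 of those were members. The transcripts uc007xok.1 and uc007ihs.1 were set aside by the rule, and neither met it.

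Primary mouse cortical neurons in culture carried doxycycline-inducible lentiviral TurboID, a biotin ligase that tags proteins close to it, joined to PSD95 (TurboID-PSD95, called PSD95) or without a localization signal (Pan-TurboID, called Pan). All cultures, resting or depolarized, received cycloheximide 2 minutes ahead of 30 minutes with biotin. Depolarized ones had tetrodotoxin and DL-AP5 for 2 hours, then 55 mM KCl for 1 hour and 30 minutes of rest. The labels give these steps for depolarized cultures only, so effects of KCl, the silencing drugs and the rest cannot be told apart. All cultures were crosslinked with UV light, and streptavidin beads captured the biotinylated proteins with their RNA (pulldown), beside a part of each lysate kept as input. There were 8 groups of 4 libraries, each labelled a replicate, and the conditions that did not choose the members were resting PSD95, depolarized Pan and depolarized PSD95.

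PSD95 is a scaffold protein of the postsynaptic density, the protein layer beneath the membrane of excitatory synapses. A pulldown of this kind recovers RNA through the labelled proteins bound to it, and its readout for a transcript is the share of the pulldown reads set against the share of the input reads. KCl depolarizes the membrane and opens voltage-gated calcium channels, and the calcium that enters starts activity-dependent transcription in neurons.

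The files name transcripts by UCSC identifiers, and 0 of these were found in the tables of gene names. The members are therefore given by identifier, without genes, functions or sequences, and neuronal markers could not be checked. The free-text descriptions of 8 libraries, all replicate 2 by title, name the opposite state from the title and the treatment field. The titles were used, and results that change with the descriptions are given with both. Reads outside the 3 most abundant transcripts ran from 0.613 M to 17.6 M reads per library, and uc009sgd.1 took over 50% of the reads in 6 libraries, from replicates 3 and 4. Counts of members called in the 3 conditions that did not choose them and after KCl are also given without those 6 libraries.

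In the resting Pan libraries, the values that chose the members, the median member was lower in the pulldown by 0.71, 1.03, 0.91 and 0.75 on the log2 scale in replicates 1 to 4. Single members had a mean difference from -6.44 to -0.57. The members nearest the limit on the inside were uc009epj.2 and uc033hrr.2, whose weakest replicates had differences of -0.503 and -0.504. Just outside were uc008oaa.1 and uc008rpw.2, at -0.498 and -0.496. With limma, 60 of the 79 were called lower in this comparison at an adjusted p under 0.05 and 0 higher, where 4.52% of all 34696 transcripts tested were called lower and 4.93% higher, and 16% of the length and count range lower. Since the same libraries chose the members, this count is a description only. Without replicate 1 it was 31, beside 0.793% of all transcripts tested and 2.63% of the range.

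The largest of these differences belonged to uc007zrg.1 (7998 nt), with 0.125, 0.825, 0.233 and 2.07 CPM in the resting Pan pulldowns against 119.6, 91.5, 317 and 125 CPM in the inputs. All 4 pulldowns were far below all 4 inputs. In resting PSD95, however, its differences were -1.69, 1.92, 3.12 and -3.44 in the 4 replicates. The estimated count of this transcript was under 1 in 5 of the 32 libraries. The member that followed by its weakest replicate, uc008xcd.2 (3091 nt), had 19.1, 2.78e-05, 6.58 and 16.4 CPM in the resting Pan pulldowns against 73.6, 21.7, 39.4 and 45.4 CPM in the inputs, and it too was under 1 estimated count in 5 libraries. These groups did not overlap either, but in resting PSD95 its differences were 0.52, 2.41, -5.45 and -1.64.

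The lengths of the members spanned the range from which they were drawn. Their median length was 3185 nt (1026 to 7998 nt), against 3632 nt for the other 6281 transcripts in the range. Their median level in the inputs, per length, was 16.5 TPM (2.73 to 245 TPM), against 7.89 TPM. By length class, 25 of 926 transcripts of 1000 to 1999 nt were members (2.70%), as were 25 of 2733 of 2000 to 3999 nt (0.915%) and 29 of 2701 of 4000 to 7999 nt (1.07%). The quantification splits reads that match several transcripts, and 11 members (13.9%) had whole counts within 0.001 in every library, so no read of theirs was split, against 15.2% of the others. An estimated count under 1 in at least 1 library was found for 24 members (30.4%), against 24.7% of the others.

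The PSD95 and depolarized libraries were then used to ask how the same transcripts behaved where they had not been selected. In all 3 conditions, with the 3 most abundant transcripts left out of the denominator, the median member was lower in the pulldown than in the input in each of the 4 replicates, and lower than the median of the other transcripts in the range. The median difference was -0.73 ± 0.086 (SD, n = 4 replicates) in resting PSD95, -0.53 ± 0.11 in depolarized Pan and -0.75 ± 0.21 in depolarized PSD95. The other transcripts had medians of -0.062 ± 0.069, 0.0030 ± 0.068 and -0.104 ± 0.039. These shares are relative to the other reads of a library, and they do not say how much RNA was recovered. When all reads were used as the denominator, the medians in depolarized Pan averaged 0.40 over replicates for the members and 0.94 for the other transcripts. These means rested largely on replicate 4. There the 3 most abundant transcripts took 91.1% of the input reads and 8.18% of the pulldown reads. In replicates 1 to 3 they took 12.3%, 20.1% and 67.9% of the inputs and 7.30%, 22.3% and 51.9% of the pulldowns. A change of denominator shifts all transcripts of a library alike apart from the pseudocount, so the distance between members and others can hardly move with it. In depolarized Pan this distance was -0.53 ± 0.047 (SD, n = 4) with the 3 transcripts left out and -0.53 ± 0.038 with all reads.

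**Figure D1:**
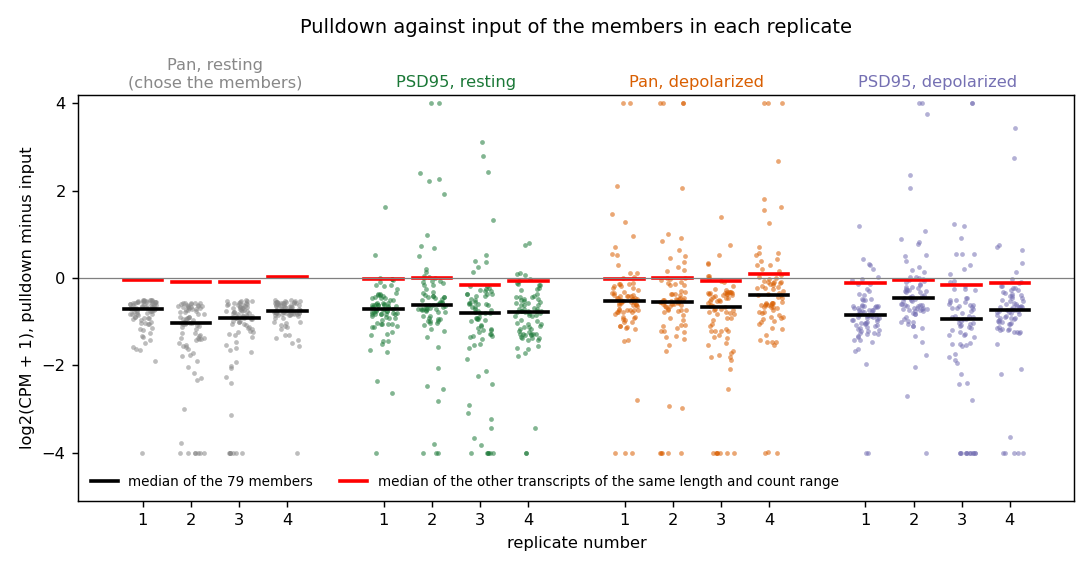
The difference in log2(CPM + 1) between pulldown and input (vertical axis) is plotted for the 79 members in each of 4 replicates of the 4 conditions (horizontal axis). Black lines are the medians of the members and red lines those of the other 6281 transcripts in the same length and count range, and 80 of 1264 points beyond 4 in either direction are drawn at 4. The black line lies below the red line and below 0 in every replicate. With all reads as the denominator, which is not drawn, the depolarized Pan mean over replicates is 0.40 and rests largely on replicate 4.

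In resting PSD95 neurons, most members were again lower in the pulldown. The median over members was lower by 0.71, 0.61, 0.81 and 0.77 on the log2 scale in replicates 1 to 4, and on average the median member stood at 60.4% of its input. Mean differences of single members ran from -3.501 to 2.22, and 75 of 79 were below 0. A difference of -0.5 or less in 4 of 4 replicates was found for 25 members (31.6%), against 2.12% of all transcripts in the range. In 55 members all 4 replicates were below 0, against 21.2% of the range, and in 0 members were all 4 above 0. With all reads as the denominator the mean of the medians was -1.12, and 14 members met the limit, with no share of the range given.

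With limma, 50 of the 79 members (63.3%) were called lower in the resting PSD95 pulldown than in the input and 0 higher. Among all transcripts tested, 4.1% were called lower and 3.14% higher, and 14.6% of those in the length and count range were called lower. The called members changed by -2.08 to -0.36 on the log2 scale, with a median of -0.92. The median change over all 79 was -0.91, against -0.20 in the range and 0.15 over all transcripts tested. Without replicate 1, 14 members (17.7%) were called lower, beside 0.561% of all transcripts tested and 1.67% of the range. Without the replicate block 23 members (29.1%) were, beside 1.05% and 3.43%. The count was 44 without the 6 libraries dominated by uc009sgd.1, beside 2.16% of all transcripts tested and 8.03% of the range.

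The smallest adjusted p among members in this comparison belonged to uc008zed.2 (1360 nt), a transcript with a mean level of 231 TPM over all libraries. It had 361, 390, 259 and 242 CPM in the resting PSD95 pulldowns and 875, 796, 453 and 587 CPM in the inputs. Every pulldown was below every input, and the mean pulldown stood at 46.2% of the mean input. The log2 change was -1.33 ± 0.12 (SE), lower in 4 of 4 replicates (limma adjusted p 2.41e-07).

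A lower and steadier level was seen for uc008tme.1 (1394 nt), one of the members with whole counts. It had 170, 167, 112 and 168 CPM in the resting PSD95 pulldowns and 292, 259, 284 and 293 CPM in the inputs. The groups did not overlap, and the pulldown of replicate 3 was the lowest. Its log2 change was -0.94 ± 0.093 (SE), lower in 4 of 4 replicates (limma adjusted p 5.43e-07).

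In depolarized Pan neurons, the construct that chose the members in the other state, the mean of the 4 medians was nearest to 0. The median over members was lower by 0.52, 0.54, 0.66 and 0.39 in replicates 1 to 4, and on average the median member stood at 69.4% of its input. Single members had mean differences between -4.40 and 1.51, with 68 of 79 below 0. The limit of -0.5 was met in 4 of 4 replicates by 18 members (22.8%), against 1.45% of the range. All 4 replicates were below 0 in 41 members, against 16.2% of the range, and above 0 in 0 members. With all reads as the denominator, the limit was met by 1 member, and the share of the range is not given. As stated above, the mean of the medians was then above 0 and rested largely on replicate 4.

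By limma, 46 members (58.2%) were lower in the depolarized Pan pulldown and 0 were higher, where 4.45% of all transcripts tested were called lower and 3.59% higher. In the length and count range 17.3% were called lower. The median change was -0.79 over the 79 members, against -0.25 in the range. Without replicate 1, 12 members (15.2%) were called lower, beside 0.508% of all transcripts tested and 1.93% of the range. Without the replicate block 14 members (17.7%) were, beside 0.530% and 1.95%. Without replicate 3 the count was 29 (36.7%), beside 1.24% and 5.03%. The 6 libraries dominated by uc009sgd.1 include the Pan inputs of replicates 3 and 4. Without those 6 libraries 34 members were called, beside 1.44% of all transcripts tested and 5.88% of the range.

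The leading member in depolarized Pan was uc007ioc.2 (6368 nt), with 328, 154, 220 and 274 CPM in the pulldowns and 548, 302, 383 and 511 CPM in the inputs. The highest pulldown, of replicate 1, was above the lowest input, of replicate 2, but each pulldown was below the input of its own replicate. Its log2 change was -1.06 ± 0.097 (SE), lower in 4 of 4 replicates (limma adjusted p 1.46e-07). Without the replicate block the adjusted p was 0.0747.

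The other leading member, uc008ulu.1 (2191 nt), had 255, 314, 275 and 301 CPM in the depolarized Pan pulldowns and 492, 516, 490 and 451 CPM in the inputs. The pulldowns lay in a narrow band below all the inputs. Its log2 change was -1.03 ± 0.10 (SE), lower in 4 of 4 replicates (limma adjusted p 5.26e-07). In both PSD95 conditions it was also called lower, by 1.24 ± 0.13 (resting) and 1.14 ± 0.10 (depolarized) on the log2 scale.

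**Figure D2:**
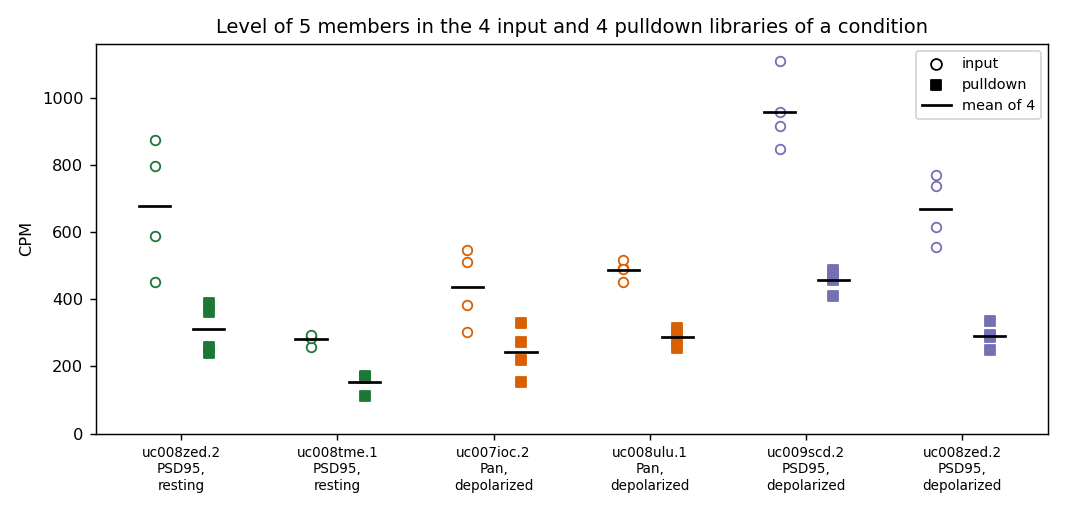
CPM (vertical axis, linear from 0) of 5 leading members in the 4 input libraries (open circles) and 4 pulldown libraries (filled squares) of the condition named below each, with black lines at the means. The pulldowns lie below the inputs for each transcript except uc007ioc.2, whose highest pulldown of 328 CPM exceeds its lowest input of 302 CPM.

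In depolarized PSD95 neurons, which share neither the construct nor the state of the libraries that chose the members, the median member was lower by 0.85, 0.47, 0.95 and 0.73 in replicates 1 to 4, or at 59.5% of its input on average. Replicate 2 had the smallest difference. Mean differences of single members ran from -4.30 to 3.04, and 74 of 79 were below 0. The limit of -0.5 was met in 4 of 4 replicates by 20 members (25.3%), against 3.95% of the range. When replicate 2 was left out, 38 members met it in the remaining replicates, which is an easier limit for any transcript. All 4 replicates were below 0 in 51 members, against 27% of the range. With all reads as the denominator the mean of the medians was -0.35 and 3 members met the limit, and with TMM-scaled CPM 34 did. Shares of the range are not given without replicate 2 or for these denominators, so those counts do not set the members apart.

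This condition had the most members called by limma among the 3 that did not choose them, with 53 (67.1%) lower in the pulldown and 0 higher. It also had the highest background, with 7.08% of all transcripts tested called lower, 5.69% called higher, and 26.7% of the length and count range called lower. The median change over the 79 members was -0.999, against -0.32 in the range. Without replicate 1, 23 members (29.1%) were called lower, beside 1.78% of all transcripts tested and 6.90% of the range. Without the 6 libraries dominated by uc009sgd.1 the count was 52, beside 4.72% of all transcripts tested and 19.5% of the range.

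The smallest adjusted p belonged to uc009scd.2 (1861 nt), an abundant transcript at a mean of 241 TPM. It had 458, 479, 410 and 487 CPM in the depolarized PSD95 pulldowns and 1111, 958, 848 and 916 CPM in the inputs. The groups were well separated, and the mean pulldown stood at 47.9% of the mean input. The log2 change was -1.39 ± 0.094 (SE), lower in 4 of 4 replicates (limma adjusted p 2.74e-10).

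The transcript uc008zed.2, described above for resting PSD95, followed with 288, 336, 249 and 294 CPM in the pulldowns and 771, 739, 555 and 614 CPM in the inputs. Its log2 change was -1.51 ± 0.11 (SE), lower in 4 of 4 replicates (limma adjusted p 1.93e-09). The change of the same transcript in depolarized Pan was -1.07 ± 0.11, with an adjusted p of 6.85e-07.

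The member that moved furthest the other way, named after its values were seen, was uc008tvs.2 (5153 nt). In the depolarized PSD95 libraries it was higher in the pulldown by 1.18, 2.37, 5.87 and 2.75 in replicates 1 to 4, the only member above 0 in all of them. Its limma adjusted p was 0.114, so it was not called. Its estimated count was under 1 in 4 libraries.

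**Figure D3:**
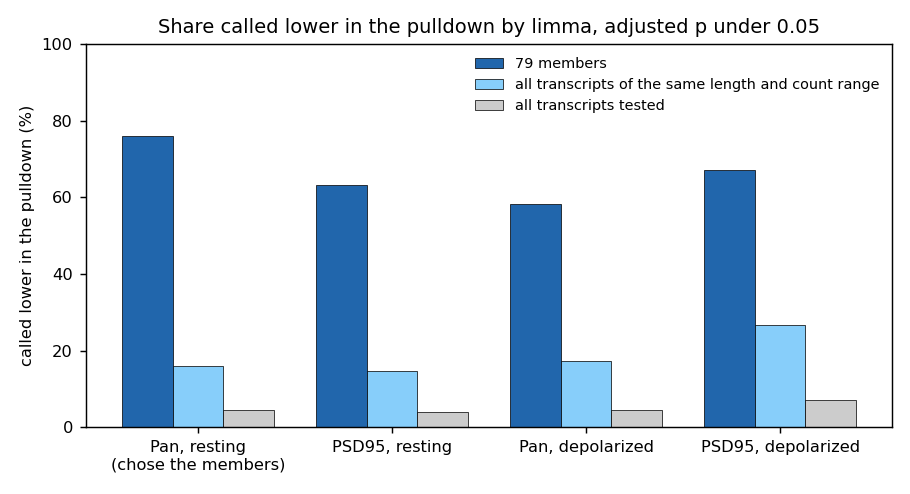
Percent of transcripts called lower in the pulldown than in the input by limma at an adjusted p under 0.05 (vertical axis, from 0) in the 4 conditions, for the 79 members, all 6360 transcripts of the same length and count range, and all 34696 transcripts tested. In the 3 conditions that did not choose the members, the shares are 58.2% to 67.1% for the members and 14.6% to 26.7% for the range.

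Taking the 3 other conditions side by side, 37 members (46.8%) were called lower by limma in all 3, 17 in 2, 4 in 1 and 21 (26.6%) in 0. Among the other 6281 transcripts in the range, 8.09% were called lower in all 3 and 69.4% in 0, and among all transcripts tested 2.09% and 91.2%. The 37 were also called in resting Pan, but those libraries chose the members, so this is a description only. Between the PSD95 states, 46 members were called lower in both, 92% of the 50 called in resting and 86.8% of the 53 called in depolarized neurons. For the other transcripts in the range these shares were 85.6% and 45.7%. The members called in all 3 conditions had a median length of 2438 nt and a median mean count of 1111, against 3777 nt and 307 for the 21 called in 0.

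The members were also described by whether they had a library close to 0 counts. The same libraries enter the tests, where such a library widens the spread of a member, so the counts that follow are a description only. Among the 55 with an estimated count of at least 1 in every library, 45 were called lower in resting PSD95, 41 in depolarized Pan and 49 in depolarized PSD95, and 36 in all 3. Among the 24 with a count under 1 in at least 1 library, the numbers were 5, 5 and 4, and 1 in all 3. The medians of these 24 also spread more between replicates, at -1.10 ± 0.79, -0.80 ± 0.62 and -1.21 ± 1.40 (SD, n = 4), against -0.73 ± 0.078, -0.51 ± 0.037 and -0.75 ± 0.17 for the 55. Of the 11 members with whole counts, whose reads were not split between transcripts, 10, 9 and 10 were called lower in the 3 conditions and 7 in all 3. Over the undivided range, 14.6%, 17.3% and 26.7% were called lower in the 3 conditions. Over all transcripts tested, the shares were 4.10%, 4.45% and 7.08%. Shares for other transcripts divided in the same ways are not given here, so these counts do not set the members apart from them.

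At the stricter limit of -0.5 in 4 of 4 replicates, 6 members met it in all 3 other conditions, 11 in 2, 23 in 1 and 39 in 0. Among the other transcripts in the range, 0.0637% met it in all 3 and 94.2% in 0. With the 3 most abundant transcripts left out of the denominator, the 6 members were therefore lower by at least 0.5 in every one of 16 pairs of pulldown and input, the 4 pairs that chose them included. With all reads as the denominator, 0 of the 6 were. Across those pairs their weakest difference was -0.50 and their strongest -2.48. The abundant uc008zed.2 was one of them, with differences from -0.53 to -1.42, and each of the 6 had a count of at least 1 in every library. All 4 replicates were below 0 in all 3 conditions for 30 members (38.0%), against 6.00% of the others.

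**Figure D4:**
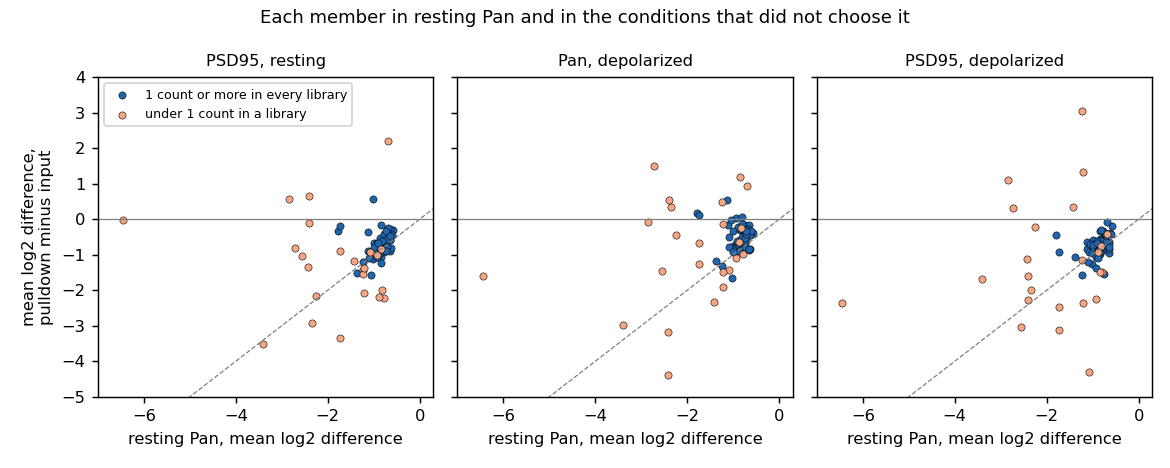
Mean difference in log2(CPM + 1) between pulldown and input over 4 replicates, for each of the 79 members, in resting Pan (horizontal axis, the values that chose the members) and in each of the 3 other conditions (vertical axes), with a dashed line where the values are equal. Blue points are the 55 members with at least 1 count in every library and orange points the 24 others, which hold most of the members far from the line. With all reads as the denominator, which is not drawn, the medians of depolarized Pan have a mean over replicates of 0.40, resting largely on replicate 4.

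The order of the members was only partly shared between conditions. Across the 79 members, Spearman's rho between mean differences was 0.32 for resting and depolarized PSD95, 0.48 for depolarized Pan and depolarized PSD95, and 0.25 for resting PSD95 and depolarized Pan. The members are not independent, and the libraries share replicate numbers. With length, rho was -0.0048 in resting PSD95, -0.15 in depolarized Pan and -0.047 in depolarized PSD95. The shortest class, 1000 to 1999 nt, had lower medians among the other transcripts of the range too, at -0.24 ± 0.057, -0.11 ± 0.10 and -0.32 ± 0.064 (SD, n = 4) in the 3 conditions. The members of that class were at -0.74 ± 0.070, -0.45 ± 0.16 and -0.79 ± 0.24. In the longest class, 4000 to 7999 nt, the members were at -0.68 ± 0.11, -0.60 ± 0.037 and -0.70 ± 0.17, against -0.025 ± 0.084, 0.040 ± 0.043 and -0.034 ± 0.037 for the others.

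Whether the difference between pulldown and input itself changed was tested where no library had chosen the members. After KCl, the PSD95 pulldown over input of the median member changed by -0.13 on the log2 scale, against -0.11 in the length and count range. The limma test of this interaction called 0 members in either direction, where 0.0231% of all transcripts tested were called lower and 0% higher. At an unadjusted p under 0.05 there were 10 members lower and 3 higher. Of all 34696 transcripts tested, 2337 had such a p in either direction, beside 13 of the 79 members. edgeR called 0 members, DESeq2 called 1, and limma called 0 without the 6 libraries dominated by uc009sgd.1. The shares of all transcripts tested were 0.591% lower and 0.795% higher with DESeq2, and 0% in either direction with edgeR. The median standard error of a member was 0.27. Changes of single members ran from -7.20 to 4.61, and the smallest limma adjusted p was 0.121, so changes well above that standard error also went uncalled. The median member relative to the range was at -0.023, and at 0.092 without replicate 1.

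In depolarized neurons, the pulldown over input of the median member was lower by 0.21 with PSD95 than with Pan, against 0.062 in the range. The limma interaction called 0 members in either direction, with 0% of all transcripts tested called lower and 0% higher. At an unadjusted p under 0.05 there were 12 members lower and 2 higher. Of all 34696 transcripts tested, 2249 had such a p in either direction, beside 14 of the 79 members. edgeR, DESeq2 and limma without those 6 libraries each called 0 members. The median standard error was 0.29. Without replicate 1, the median member and the median of the range differed by 0.0037 in this comparison, in the opposite direction to the -0.14 with all replicates. The resting Pan libraries were left out of such comparisons because they chose the members.

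The inputs and the pulldowns of the PSD95 neurons were also compared between the states, to see whether the level of the members differed. In bulk libraries, a change in how many cells hold a transcript and a change in its amount per cell cannot be told apart. In the inputs, limma called 2 members lower and 2 higher after KCl (2.53% each), where 1.24% of all transcripts tested were called lower and 1.42% higher. In the range, 4.73% were lower and 2.39% higher. The median change of the members was -0.020, against -0.055 in the range.

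Among the 4 called members, uc009dvr.1 (5771 nt) had a fitted log2 change of at least 0.5 in size and was lower in 4 of 4 replicates. It had 81.2, 49.4, 115 and 90.6 CPM in the depolarized PSD95 inputs and 106, 88.6, 159 and 109 CPM in the resting ones. The groups overlapped, although each replicate was lower after KCl. Its log2 change was -0.52 ± 0.14 (SE; limma adjusted p 0.0344), and it was not called in 11 of 14 alternatives.

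The other called members, named after their values were seen, changed less. The transcripts uc009epj.2 and uc009ini.2 were higher after KCl, by 0.38 ± 0.076 and 0.47 ± 0.10 on the log2 scale, each in 4 of 4 replicates (limma adjusted p 0.00433 and 0.0111). The transcript uc007cot.2 was lower by 0.42 ± 0.11 (log2 change -0.42, adjusted p 0.0318), in 3 of 4 replicates. With the states of the descriptions, edgeR or no replicate block, 0 members were called in the inputs. Of all transcripts tested, those settings called 0.0231%, 0.147% and 0.340% lower and 0.00288%, 0.190% and 0.700% higher. Without the 6 libraries dominated by uc009sgd.1, 0 were lower and 2 (2.53%) higher, beside 0.607% and 1.15% of all transcripts tested. Without replicate 1, 0 were called, beside 0.0881% lower and 0.179% higher.

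In the PSD95 pulldowns, limma called 7 members lower after KCl and 0 higher. Of these, named here after their values were seen, only uc008lou.2 was lower in 4 of 4 replicates. The transcripts uc008hai.1, uc007ioc.2, uc007leq.1 and uc007cot.2 were lower in 3 of 4, and uc009ger.2 and uc009scd.2 in 2 of 4. The mean of uc009scd.2 was 459 CPM in the depolarized PSD95 pulldowns and 452 CPM in the resting ones. The background was 3.8% lower and 3.51% higher over all transcripts tested, and in the range 15% were called lower and 4.67% higher, against 8.86% and 0% of members. The direction depended on the processing, and calls over all transcripts moved towards higher in the same settings. With DESeq2, 1 member was lower and 5 (6.33%) higher, beside 2.42% and 3.70% of all transcripts tested. When only transcripts averaging 5 CPM or more were tested, 0 were lower and 7 (8.86%) higher, beside 5.65% and 8.93%. With RLE scaling 4 members (5.06%) were lower and 4 higher, beside 3.14% and 4.65%. Without the 6 libraries dominated by uc009sgd.1, 5 (6.33%) were lower and 0 higher, beside 2.77% and 3.23%. Without replicate 1, 0 were called, beside 0.229% and 0.220%. Without replicate 2, 2 (2.53%) were lower, beside 1.82% and 1.82%, and without replicate 4, 4 (5.06%) were, beside 2.26% and 1.42%. With the states of the descriptions 1 (1.27%) was lower, beside 0.231% and 0.0288%.

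Among the 7 called members, uc008lou.2 (6617 nt) had a fitted log2 change of at least 0.5 in size and was lower in 4 of 4 replicates. It had 0, 25.1, 0 and 0 CPM in the depolarized PSD95 pulldowns and 44.4, 70.8, 6.18 and 56.3 CPM in the resting ones. The pulldown of replicate 2, whose description names the other state, stood apart, and the transcript had an estimated count under 1 in 8 of 32 libraries. The limma adjusted p was 0.0123, and the call was lost in 5 of 14 alternatives.

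**Figure D5:**
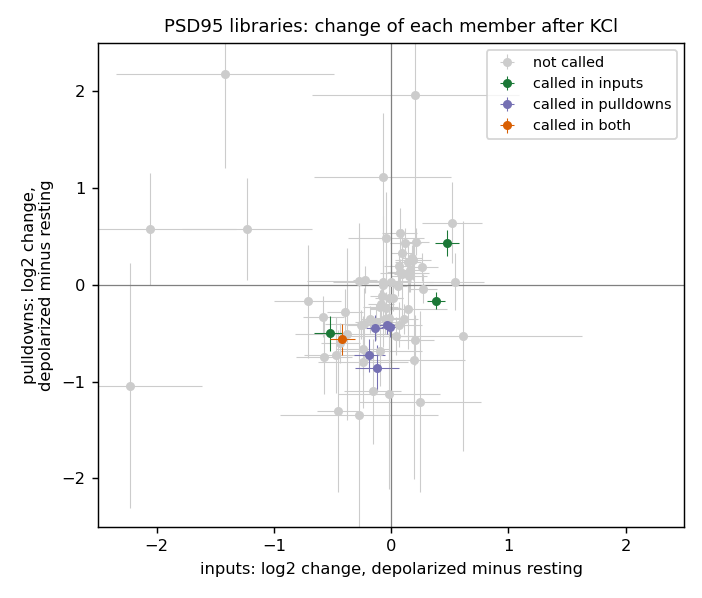
Limma log2 change after KCl in the PSD95 inputs (horizontal axis) and PSD95 pulldowns (vertical axis) for 74 members, with bars of 1 standard error. The 5 members with a change beyond 2.5 are not drawn, the colours mark calls at an adjusted p under 0.05, and only uc007cot.2 was called in both; the direction of the pulldown calls changes with DESeq2 and with a filter at a mean CPM of 5.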

How the data were processed

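The authors quantified reads with salmon against mm10 UCSC knownGene transcripts, per the labels and the study's methods, with 1 deposited file per library, and no version of salmon was stated in those sources. The deposited expected counts split reads that match several transcripts. The deposited TPM values were used only to compare levels per length. The members and lists were chosen with earlier results of these data known.

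CPM was computed from the expected counts without uc009sgd.1, uc012eno.1 and uc033jng.1, with a pseudocount of 1. For the tests, expected counts were rounded and fitted with limma 3.58.1 (voomWithQualityWeights, filterByExpr and TMM from edgeR 4.0.16, R 4.3.3) on all 32 libraries, with terms for group and replicate number and Benjamini-Hochberg adjustment over 34696 transcripts at 0.05. The study's methods give the filter, the quality weights and a model of group and batch, and by them samples of a replicate were handled together. The study fitted pulldowns only, on the longest transcript of each gene, and compared constructs. Here inputs were fitted too, on all transcripts, and pulldown was compared with input. Of 96 pairs of libraries with the same number from different lysates, 22 correlated above 0.1 in their residuals (mean r 0.0642, against -0.0211 for different numbers). Titles gave state and replicate number, and no 2 files were identical (0 pairs). Total counts ran from 2.95 M to 19.3 M per library, and p-values measure the spread between these libraries.

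In each comparison the text names at most 2 called members per direction, those of smallest p with a fitted log2 change of at least 0.5 in size and the same direction in 4 of 4 replicates. In resting Pan it names the 2 members with the largest difference in their weakest replicate, and those next to the limit, and exceptions are marked. In simulated counts for the resting PSD95 comparison (34696 transcripts), limma found 31 of the 100 transcripts set to differ 2-fold, 74 of the 100 set to differ 4-fold and 2 that were not changed. For edgeR these numbers were 24, 73 and 0. Among the 2-fold and 4-fold transcripts, 5 and 3 had the wrong direction with limma, and 4 and 2 with edgeR. The simulated counts had no replicate or lysate effect and no differences in library quality beyond depth. They therefore do not measure the rate of false calls in these libraries. As alternatives, the tests were run with DESeq2 1.42.0, with the quasi-likelihood test of edgeR, with RLE scaling, other filters and weights, other blocks, the described states, other CPM denominators and limits, and leaving out each replicate. Leaving out the 6 libraries with over 50% of reads in uc009sgd.1 was chosen after seeing the data.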

Additional observations from a re-analysis of the deposited data

Results flagged for a closer look

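Dixon's test at the 95% level was run on 24 sets of 4 values. These were the replicate medians of the members in the 4 conditions and the libraries of named members. In 3 sets, all of named members, 1 library stood apart, where chance gives about 1 in 20. The 3 libraries were uc007zrg.1 at 316.9 CPM in the resting Pan input of replicate 3, uc008tme.1 at 112.3 CPM in the resting PSD95 pulldown of replicate 3, and uc008lou.2 at 25.07 CPM in the depolarized PSD95 pulldown of replicate 2. The transcript uc008tvs.2 lay on opposite sides of 0 in all replicates of resting Pan, which chose it (mean log2 difference -1.24), and of depolarized PSD95 (mean 3.041). That difference was not tested.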

How the results depend on the processing

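In the 4 comparisons of pulldown and input, 0 members were called higher in each of 15 alternatives. Pulldown and input of 1 lysate were matched in the main fit only through their replicate number. With a block for each lysate, 53 members were called lower in resting Pan and 45 in resting PSD95. In depolarized Pan 36 were, and in depolarized PSD95 49. The shares of all transcripts tested were 3.64%, 2.99%, 2.82% and 5.50% in that order. The counts called lower were outside 1.5 times the reported count with edgeR (39 in resting Pan, 24 in depolarized Pan) and with no replicate block (23 in resting PSD95, 14 in depolarized Pan). The shares of all transcripts tested called lower were 1.00% and 1.16% with edgeR, and 1.05% and 0.530% with no replicate block. Leaving out each replicate gave 31 to 56 in resting Pan, 14 to 43 in resting PSD95, 12 to 38 in depolarized Pan and 23 to 53 in depolarized PSD95, and the lowest count came without replicate 1 each time. RLE scaling moved the median of all tested transcripts from 0.15 to 0.32 in resting PSD95 and from 0.080 to 0.29 in depolarized PSD95, and the split of all calls there from 1424 lower and 1091 higher to 983 and 1583, and from 2458 and 1975 to 1559 and 2866. The median of the members minus that of the range stayed at or below -0.52 (rounded) in the 15 fitted alternatives of all 4 comparisons.

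For the change of the PSD95 pulldown over input after KCl, 1 member was called with DESeq2, 1 with RLE scaling and 2 with no filter, and 0 to 0 without each replicate, as for PSD95 against Pan. Of all transcripts tested, DESeq2 called 0.591% lower in that comparison, RLE scaling 0.0317% and no filter 0.0857%. In the PSD95 inputs 0 were called with edgeR, no replicate block or the described states, 1 with DESeq2, 10 with no filter, 2 without the 6 libraries rich in uc009sgd.1, and 0 to 3 without each replicate. Of all transcripts tested in the inputs, no filter called 1.28% lower and 1.44% higher, and DESeq2 1.72% and 2.67%. In the PSD95 pulldowns the calls were 0 with edgeR, 6 with DESeq2 (reversed, 5 of them higher) and 7 when transcripts under a mean of 5 CPM were left out (reversed, 7 higher), 3 without quality weights, 1 with no replicate block, 1 with the described states, and 0 to 5 without each replicate. Of all transcripts tested in the pulldowns, edgeR called 0.643% lower and 0.386% higher. The shares were 3.44% and 2.73% without quality weights, and 1.39% and 1.89% with no replicate block. The causes were not tested.

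The limit of -0.5 in 4 of 4 replicates was met with CPM over all transcripts by 12 members in resting Pan, 14 in resting PSD95, 1 in depolarized Pan and 3 in depolarized PSD95, by 34 in depolarized PSD95 with TMM-scaled CPM, and by 45 in resting Pan with the described states. Without each replicate it was met by 79 to 79, 28 to 33, 21 to 22 and 22 to 38. Shares of the range under these settings are not given, and they can move with the members. Medians of the members with CPM over all transcripts, as means over replicates, were -1.12 in resting PSD95, 0.40 in depolarized Pan and -0.35 in depolarized PSD95. The sign in depolarized Pan was reversed, largely through replicate 4, as given above. With TMM-scaled CPM they were -0.88 in resting PSD95 and -0.70 in depolarized Pan, where the described states gave -0.65. Without each replicate they ran from -0.90 to -0.79 in resting Pan, -0.76 to -0.70 in resting PSD95, -0.57 to -0.49 in depolarized Pan and -0.84 to -0.68 in depolarized PSD95.

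The rule found 182 transcripts at a limit of -0.4, 41 at -0.6, 50 at a mean count of at least 400, 15 with CPM over all transcripts (12 shared), 142 with TMM-scaled CPM (77 shared) and 66 with the described states (45 shared). Leaving out a replicate gave 126 to 229. The member list therefore depended on the denominator and on the states assigned to replicate 2. The calls for uc008zed.2, uc008tme.1, uc008ulu.1 and uc009scd.2 held in 15 of 15 alternatives. In the resting Pan comparison, 54 members were called lower without the 6 libraries rich in uc009sgd.1. The shares there were 3.05% of all transcripts tested and 11.4% of the range.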
